A study of Mus musculus with 26 samples.

Results

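The mitochondrial ribosomal protein genes were taken as every array probe whose annotated symbol begins with Mrpl or Mrps followed by a digit. The rule found 132 probes for 76 genes, of 45260 probes and 19051 genes on the array. A gene was tested where at least 1 of its probes was detected on at least 5 arrays of 1 group, and 72 of the 76 members, through 110 probes, met that requirement. The rule uses names and no measured value.

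Mammalian mitochondria hold their own ribosome, which makes only the few membrane subunits of the respiratory chain and ATP synthase that mitochondrial DNA encodes. Its RNAs come from mitochondrial DNA, whereas all of its proteins are encoded in the nucleus, made in the cytosol and imported. Many of these proteins descend from bacterial ribosomal proteins and carry the bacterial numbering, and others exist only in mitochondria. Mrpl names belong to the large subunit, which joins amino acids, and most Mrps names to the small subunit, which reads the messenger RNA. Mrps18a and Mrps30 are large subunit proteins in spite of their names and were counted there.

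The study profiled HCmel3 mouse melanomas grown in C57BL6 mice, excised and frozen, on Illumina Mouse WG6 v2.0 bead arrays with 100 ng of RNA per sample. One table holds NT (8 untreated tumours) and EDT (8 tumours taken early during treatment, on days 12 to 20 after it began). The other holds ctrl (5 untreated tumours) and relapse (5 tumours that came back after treatment). The titles of both ctrl and relapse samples mark them as analysed again. Adoptive cell therapy (ACT) in the treated mice joined a single dose of cyclophosphamide, intravenous CD8+ pmel-1 T cells with a transgenic receptor for gp100, an adenovirus vaccine expressing gp100, and the innate stimuli CpG and polyI:C. No group received 1 component alone, so the components cannot be told apart. No label states that each tumour is from its own animal, and the p-values cover only the variation among the samples at hand. Levels are log2 intensities after background correction and quantile normalization within each table. They are not compared between tables or between genes.

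Some properties of the arrays moved with the groups. EDT arrays detected on average 1026.5 more probes than NT arrays (two-sided exact permutation p = 0.00793), and relapse arrays 1595.2 more than ctrl arrays (exact p = 0.0397). Melanocyte markers had summed intensities of 142056 to 155742 in ctrl and 3549 to 84132 in relapse, and all 10 of those tested fell in relapse (limma, adjusted over 9553 genes). In EDT 3 of these 10 fell. Of 10 macrophage and monocyte markers, 9 rose in EDT and 9 in relapse. All 5 tested T cell markers rose in EDT and 4 in relapse. Of these, Cd3d, Cd3g and Cd2 were detected on no NT and no ctrl array, and Cd3e on no ctrl array. Cd3d, Cd3g and Cd2 could pass the detection filter only through EDT or relapse. Their rise was thus in part set by the filter, and the count is no independent evidence of it. Cd5 and Cd8a, which were not among those tested, were detected on none of the 26 arrays. The part of these cell type shifts in the values that follow was not tested. In RNA of whole tumours, fewer cells of a type and less RNA per cell cannot be told apart.

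Of the 72 tested members, 71 were detected on every array. Mrpl57, a small protein of the large subunit, was detected on 7 of 8 NT, 7 of 8 EDT, 4 of 5 ctrl and 5 of 5 relapse arrays. The 4 untested members were Mrps14, detected on 2 ctrl arrays, Mrpl45, detected on 1 NT array, and Mrpl19 and Mrpl32, detected on 0 of 26. Mrpl41 and Mrps36 were not analysed here. In the second table, where bead numbers are given, a member probe was read from a median of 40 beads, and single readings rested on 17 to 79 beads.

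The mean level of the family differed between groups by less than the spread between arrays. The mean over the 72 members was 9.98 ± 0.13 (SD, n = 8) in NT and 9.95 ± 0.08 (n = 8) in EDT. In NT the single arrays lay between 9.74 and 10.11, and in EDT between 9.85 and 10.11. It was 10.18 ± 0.21 (n = 5) in ctrl and 10.16 ± 0.18 (n = 5) in relapse, with single arrays at 9.92 to 10.47 and at 9.92 to 10.42. Treated and untreated arrays overlapped over nearly their whole ranges.

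Early during treatment, 16 of the 72 members (22.2%) passed the test against NT, beside 29.6% of all 9553 genes tested (limma, Benjamini-Hochberg adjusted p under 0.05). Of these, 9 rose and 7 fell, and the shares of all genes were 14.5% and 15.1%. The median change was -0.10 on the log2 scale for the members and -0.05 for all genes. Large subunit proteins gave 5 risers and 5 fallers among 47 tested, and small subunit proteins 4 and 2 among 25. The changes were small, with the outermost at 0.89 for Mrpl1 and -0.56 for Mrpl16.

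**Figure D1:**
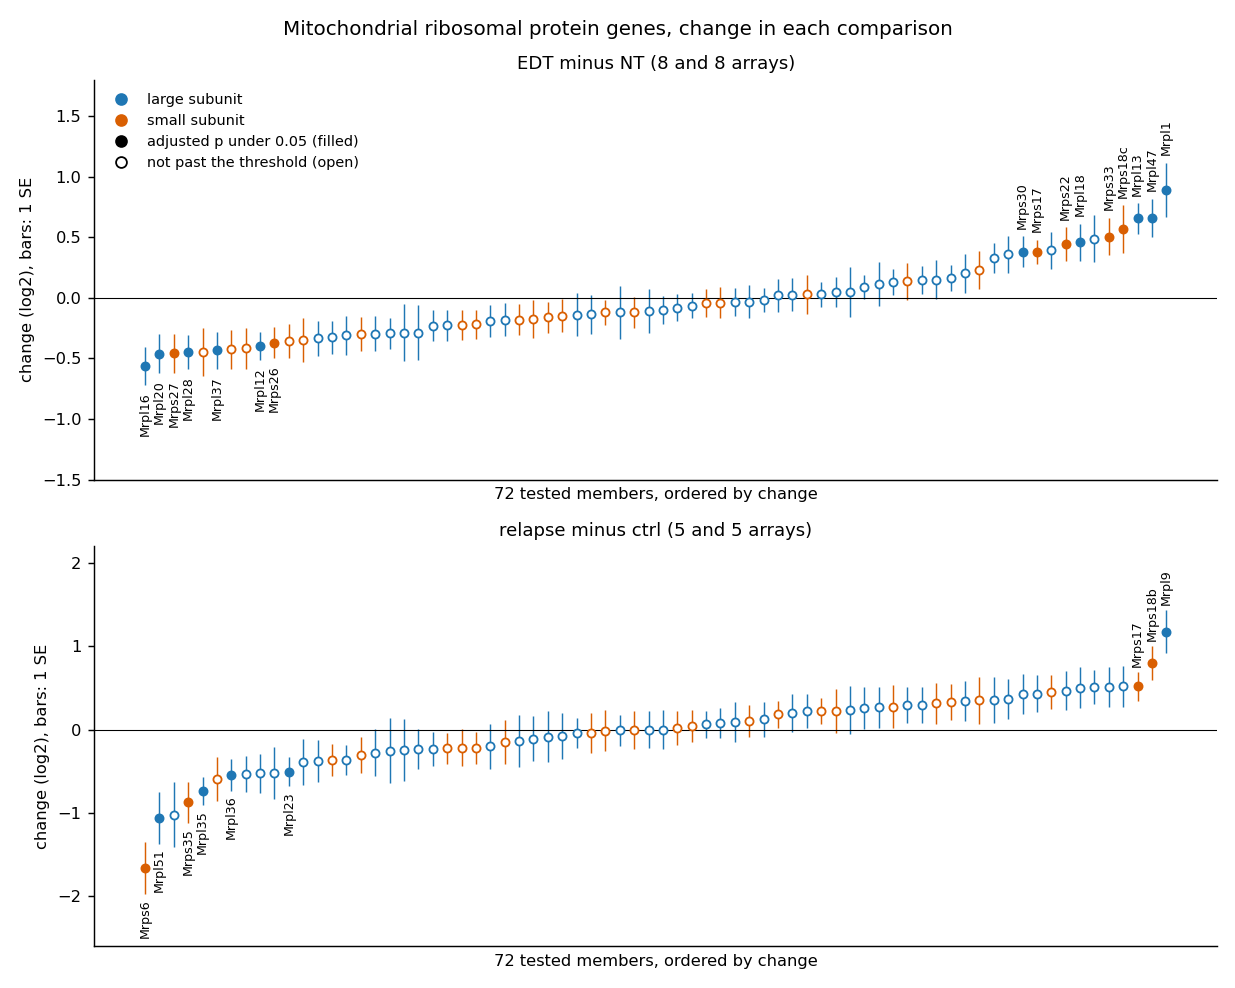
Change of each of the 72 tested members on the log2 scale with 1 standard error, ordered from lowest to highest, for EDT against NT (top) and relapse against ctrl (bottom). Blue marks the large and orange the small subunit, and filled, named points passed the test: 9 higher and 7 lower in EDT, 3 higher and 6 lower in relapse.

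The riser with the clearest separation was Mrpl13, a large subunit protein with a bacterial counterpart. Its level was 11.96 at the lowest, 12.32 at the median and 12.50 at the highest in NT, and 12.65, 12.84 and 13.37 in EDT. Every EDT tumour was above every NT tumour. Mrpl13 was the only member whose groups did not overlap, and 6.07% of all tested genes had such groups. The change was 0.66 ± 0.13 (SE), or 1.57-fold, with an adjusted p of 0.000993 (limma, 8 against 8 arrays). A second Mrpl13 probe gave 0.44 ± 0.21 and did not pass.

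Mrpl1 is the counterpart of the bacterial protein that forms the mobile stalk beside the site where spent transfer RNA leaves. Its lowest, median and highest levels were 6.89, 7.58 and 8.33 in NT and 7.81, 8.63 and 8.90 in EDT. All 8 EDT tumours were above the NT mean, and 5 were above every NT tumour. Mrpl1 rose 1.86-fold (0.89 ± 0.22, adjusted p = 0.00641 in limma). Its second passing probe was detected on 0 of 8 NT and 5 of 8 EDT arrays, so it gives no size for the change.

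Mrpl47, the counterpart of a bacterial protein at the mouth of the exit tunnel, had levels of 7.97, 8.14 and 8.91 in NT and 8.65, 8.96 and 9.41 in EDT. It rose by 0.66 ± 0.16 (adjusted p = 0.00481 in limma), and 4 EDT tumours were above every NT tumour. Its probes disagreed: a second one, detected on 5 of 8 NT and 7 of 8 EDT arrays, gave -0.06 ± 0.26. Mrpl18, whose bacterial counterpart binds the smallest ribosomal RNA, rose by 0.46 ± 0.16 (adjusted p = 0.0336 in limma). That call was lost in 9 of 16 fits without 1 array and in 5 of 11 other settings. A second Mrpl18 probe was detected on only 2 of 8 NT and 3 of 8 EDT arrays and gives no comparable value.

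Among the small subunit risers, Mrps17 had the narrowest groups. Its bacterial counterpart binds the RNA of the small subunit early in assembly. Levels ran from 10.78 through a median of 10.93 to 11.30 in NT and from 11.21 through 11.37 to 11.53 in EDT, so that 6 of 8 EDT tumours were above all NT tumours. The rise was 0.38 ± 0.10, or 1.30-fold (adjusted p = 0.0078, limma). Mrps33, a protein found only in mitochondrial ribosomes, rose by 0.51 ± 0.16, and its second probe gave 0.53 ± 0.15 and passed as well.

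Mrps18c, 1 of the mammalian counterparts of bacterial S18, rose by 0.57 ± 0.20 (adjusted p = 0.0371 in limma). Mrps22, which is mutated in a human mitochondrial disease, rose by 0.44 ± 0.14, and all 8 of its EDT values were above the NT mean. Mrps30, a mitochondria-only protein of the large subunit, rose by 0.38 ± 0.13 (adjusted p = 0.0353, limma). Its relative Mrpl37 fell by 0.43 on the log2 scale (adjusted p = 0.043 in limma). The calls of Mrps18c, Mrps30 and Mrpl37 were lost in 10, 8 and 11 of 16 fits without 1 array. In other settings they were lost in 5, 4 and 6 of 11. The Mrps22 call was kept in 16 of 16 fits without 1 array and lost in 4 of 11 other settings.

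The member that fell furthest was Mrpl16, whose bacterial counterpart sits near the catalytic centre and the incoming transfer RNA. Levels were 8.22, 9.15 and 9.37 in NT and 8.23, 8.40 and 8.79 in EDT (lowest, median, highest). The 8 EDT values were below the NT mean, but the lowest NT tumour was lower than any of them. The change was -0.56 ± 0.16 (adjusted p = 0.0124, limma). This call was kept in 16 of 16 fits without 1 array and lost in 3 of 11 other settings.

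Mrpl12 forms the flexible stalk that recruits translation factors, and in human cells it also binds the mitochondrial RNA polymerase. It had levels of 11.01, 11.33 and 11.76 in NT and 10.71, 11.03 and 11.22 in EDT, and it fell by 0.40 on the log2 scale (SE 0.12, adjusted p = 0.0158 in limma). The Mrpl12 call was kept in 16 of 16 fits without 1 array. It was not kept in 4 of 11 other settings, the authors' values and centring on all probes among them. The stalk was not uniform. Mrpl10, the anchor of Mrpl12, had a change of -0.31 ± 0.16 (95% interval -0.65 to 0.03), and Mrpl11 at the stalk base had 0.39 ± 0.15, and neither passed.

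Mrpl28, a large subunit protein whose human form was also described as a melanoma antigen seen by T cells, had levels of 11.62, 11.99 and 12.31 in NT and 11.06, 11.60 and 12.08 in EDT. It fell by 0.45 on the log2 scale (SE 0.14, adjusted p = 0.0216 in limma), with 4 EDT tumours below every NT tumour and 1 above the NT mean. The Mrpl28 call was kept in 16 of 16 fits without 1 array. In 4 of 11 other settings it was lost, the authors' values and centring on all probes among them. Mrpl20, which acts early in assembly of the bacterial large subunit, and Mrps27, an RNA-binding protein of the small subunit, each fell by 0.46. Their adjusted p-values were 0.0379 and 0.0388 in limma. Each of these calls was lost in 9 of 16 fits without 1 array and in 7 of 11 other settings. The mitochondria-only Mrps26 fell by 0.37, and 4 of its 8 EDT values were below all of NT. The Mrps26 call was lost in 6 of 16 fits without 1 array and not kept in 4 of 11 other settings.

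**Figure D2:**
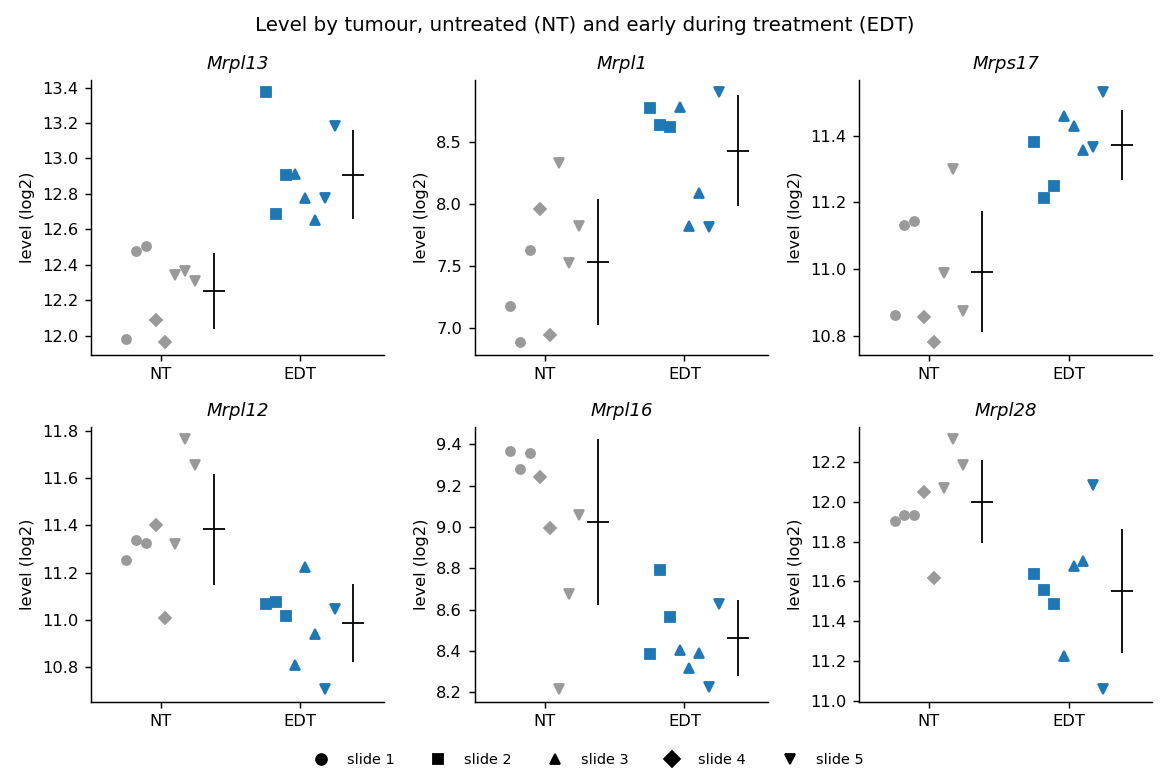
Level (log2) of 6 members in each NT (grey) and EDT (blue) tumour, with the slide given by the symbol and the group mean and SD by the black bars. Mrpl13 has 8 of 8 EDT tumours above all NT tumours, whereas the groups of the other 5 overlap.

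The slide on which an array sat bears on these counts, since slides 1 and 4 held only NT arrays, slides 2 and 3 only EDT arrays, and slide 5 alone held both (3 NT and 2 EDT arrays). With slide as a fixed block, which draws the difference from slide 5, the count was 0 higher and 6 lower, beside 10.9% of all genes called, and Mrpl12 alone among the 16 was still called (-0.70, adjusted p = 0.0352 in limma). Within slide 5 by itself 0 members were called, beside 5.02% of all genes, and all 16 kept their sign there, with Mrpl13 at 0.64 (adjusted p = 0.216 in limma). The balance of directions also depended on scaling. Centring each array on the median of all its probes moved the median of all genes to 0.29. It gave 15 members higher and 0 lower, beside 23.8% and 1.82% of all genes. The authors' deposited values gave 13 and 1, beside 18.3% and 7.9% of all genes.

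In relapsed tumours Mrps6 fell and Mrpl9 rose, each by over 1 log2 unit. The test against ctrl was passed by 9 of 72 members (12.5%), beside 30.8% of all genes, with 3 higher and 6 lower (limma, adjusted p under 0.05). The shares of all genes were 13.3% higher and 17.5% lower. Median changes were 0.00 for the members and -0.07 for all genes. The large subunit gave 1 riser and 4 fallers and the small subunit 2 and 2. Groups did not overlap for 5 members, Mrpl9, Mrpl23, Mrpl35, Mrps17 and Mrps18b, beside 18.1% of all genes.

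Promoter sequences are shown for the members that passed at relapse and held a searched motif, so that the genes with opposite changes can be read side by side. Each is the RefSeq stretch from 250 bases before to 50 bases after an annotated start in GRCm38.p6, and capitals mark the matches on either strand. The letters searched on both strands were GCGCATGC (NRF1), CCGGAAG (the ETS family, which includes GABPA), AAGATGGC (YY1) and CACGTG (the E-box). NRF1, GABPA and YY1 are known regulators of nuclear genes for mitochondrial proteins.
Mrpl9 (chr3:94443086-94443385, plus strand): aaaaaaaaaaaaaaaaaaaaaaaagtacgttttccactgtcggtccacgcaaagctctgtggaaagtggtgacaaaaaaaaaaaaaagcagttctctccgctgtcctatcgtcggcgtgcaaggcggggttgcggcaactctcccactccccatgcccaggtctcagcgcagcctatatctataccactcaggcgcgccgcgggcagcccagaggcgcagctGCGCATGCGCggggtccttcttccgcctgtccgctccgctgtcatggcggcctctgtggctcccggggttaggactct
Mrps18b (chr17:35916391-35916690, minus strand): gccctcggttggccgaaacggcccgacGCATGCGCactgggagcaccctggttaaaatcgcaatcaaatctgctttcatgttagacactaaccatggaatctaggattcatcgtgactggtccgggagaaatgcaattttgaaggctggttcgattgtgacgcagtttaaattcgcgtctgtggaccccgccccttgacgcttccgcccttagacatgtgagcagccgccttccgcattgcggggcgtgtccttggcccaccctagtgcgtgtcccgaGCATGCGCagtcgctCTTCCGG
Mrpl35 (chr6:71823735-71824034, minus strand): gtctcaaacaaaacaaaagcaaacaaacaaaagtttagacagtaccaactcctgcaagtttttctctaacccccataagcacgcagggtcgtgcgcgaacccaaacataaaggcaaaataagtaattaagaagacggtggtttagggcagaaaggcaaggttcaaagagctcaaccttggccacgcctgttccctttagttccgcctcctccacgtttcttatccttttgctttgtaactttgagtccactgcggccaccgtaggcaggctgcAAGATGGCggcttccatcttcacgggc
Mrpl36 (chr13:73330759-73331058, plus strand): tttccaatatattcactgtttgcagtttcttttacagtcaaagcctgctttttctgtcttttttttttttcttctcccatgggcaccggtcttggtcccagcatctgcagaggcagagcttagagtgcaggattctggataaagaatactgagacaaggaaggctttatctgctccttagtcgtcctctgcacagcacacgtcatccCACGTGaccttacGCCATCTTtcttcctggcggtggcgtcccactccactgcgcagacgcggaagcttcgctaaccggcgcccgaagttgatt
Mrpl51 (chr6:125191950-125192249, plus strand): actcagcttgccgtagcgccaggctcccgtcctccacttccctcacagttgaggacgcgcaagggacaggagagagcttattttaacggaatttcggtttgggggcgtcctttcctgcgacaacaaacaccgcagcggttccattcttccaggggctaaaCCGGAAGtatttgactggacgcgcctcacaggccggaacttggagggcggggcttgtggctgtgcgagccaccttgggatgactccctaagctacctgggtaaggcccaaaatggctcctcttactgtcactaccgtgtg

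Of the 3 risers, Mrpl9 and Mrps18b held the NRF1 letters, and Mrps18b an ETS match as well. In Mrpl9 the capitals cover matches on both strands that overlap each other. Among the fallers, Mrpl35 held the YY1 letters close to its start, Mrpl36 the YY1 letters and an E-box, and Mrpl51 an ETS match. Mrps6, Mrps17 and Mrpl23 held none of the 4 motifs in this window, and Mrps35 was not matched to a promoter.

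Across the family, 67 of 76 members matched 73 promoters. NRF1 letters were in 11% of these, in 5.15% of 9984 promoters of tested genes and in 2.71% of all 32851 promoters. ETS letters were in 35.6%, 17.8% and 8.86%, and YY1 letters in 16.4%, 4.49% and 2.75%. The E-box was in 9.59%, 10.3% and 7.15%. At least 1 of NRF1, ETS or YY1 was in 52.1% of member promoters, and in 52.1% of the 48 promoters of members that passed in neither comparison. These shares are descriptions of letters and not of binding.

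The member with the largest change at relapse was Mrps6, the counterpart of bacterial S6. Its ctrl levels were 11.68, 11.30, 11.56, 10.50 and 11.91, and its relapse levels 9.62, 9.63, 10.53, 9.02 and 9.85 (tumours 1 to 5 in each group). Only relapse tumour 3 reached into the ctrl range, where ctrl tumour 4 was low. Mrps6 fell by 1.66 on the log2 scale, or 3.16-fold (SE 0.32, adjusted p = 0.00337, limma, 5 against 5 arrays). Within slide 6 the change was -1.59 (adjusted p = 0.0347 in limma) and within slide 7 it was -1.76 (adjusted p = 0.0591). Mrps6 overlaps the transporter gene Slc5a3 in the RefSeq annotation, and Slc5a3 had no passing probe.

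Mrpl9, the counterpart of bacterial L9, had the largest rise. Its levels were 7.98, 9.05, 9.07, 8.81 and 9.16 in ctrl and 9.98, 9.52, 9.80, 10.27 and 10.40 in relapse. Every relapse tumour was above every ctrl tumour, and ctrl tumour 1 was the lowest of all. The rise was 2.26-fold (1.18 ± 0.26, adjusted p = 0.00695 in limma). Its second probe gave 0.76 ± 0.24 and passed as well.

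Mrps18b, another counterpart of bacterial S18, rose from 9.78, 10.08, 9.82, 9.83 and 9.31 in ctrl to 10.11, 10.58, 10.77, 10.79 and 10.56 in relapse. The groups did not overlap, with relapse tumour 1 only just above ctrl tumour 2. The rise was 0.80 ± 0.20, or 1.74-fold (adjusted p = 0.0129 in limma), and the other probes of Mrps18b rose by 1.26 and 1.32. Its relatives Mrps18a (0.52 ± 0.24) and Mrps18c (0.23 ± 0.16) did not pass. The rises of Mrpl9 and Mrps18b lost significance within slide 6 alone (1.06 and 0.59) and kept it within slide 7 (1.35 and 1.11).

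Mrps17 was the only member past the threshold in both comparisons. Its levels were 10.93, 10.88, 11.08, 11.25 and 11.41 in ctrl and 11.50, 11.82, 11.57, 11.63 and 11.63 in relapse, without overlap. The rise was 0.52 ± 0.17 (adjusted p = 0.0377 in limma), beside 0.38 ± 0.10 in EDT, and the changes differed by -0.14 ± 0.16 (adjusted p = 0.596). The relapse call of Mrps17 was lost in 8 of 10 fits without 1 array and in 5 of 12 other settings, the authors' values and both single slides among them.

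Relapse tumour 3 had the highest value of its group for 39 of all 72 members, and the share over all genes is not given. Its family mean was 10.42, beside 9.92 to 10.18 in the other 4. It was also highest for 5 of the 6 fallers, all but Mrpl23. This pattern was picked out after the values were seen. Mrps35, a mitochondria-only protein of the small subunit, had levels of 9.91, 9.69, 9.79, 10.11 and 10.17 in ctrl and 8.78, 8.81, 9.96, 8.82 and 8.93 in relapse. Relapse tumour 3 lay among the controls, and the other 4 lay below them all. Mrps35 fell by 0.87 on the log2 scale (SE 0.25, adjusted p = 0.0208 in limma).

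Mrpl51, a mitochondria-only protein of the large subunit, had levels of 7.03, 7.71, 6.92, 7.62 and 7.38 in ctrl and 6.63, 6.30, 7.15, 5.56 and 5.72 in relapse. Relapse tumour 3 overlapped the controls, and the other 4 lay below them all. Mrpl51 fell by 1.06 on the log2 scale (SE 0.31, adjusted p = 0.0233 in limma), and its other probes, detected on 4 and 3 of 5 relapse arrays, had -0.91 and -1.45. The Mrpl51 call was lost in 4 of 10 fits without 1 array, with the authors' values (-0.75), with centring on all probes (-0.53) and within slide 6 alone (-0.52). The summed melanocyte marker intensity of relapse tumour 3, 84132, was the highest of the 5 relapse tumours, which otherwise lay between 3549 and 57000. Its macrophage and monocyte sum of 16580 was the lowest. Its array also detected the fewest probes, 15992 beside 17525 to 18323 in the other 4. In ctrl, tumours 3 and 5 had the fewest detected probes (14545 and 15376) and the highest family means (10.25 and 10.47). In NT and EDT the array with the fewest detected probes did not have the highest family mean. The part of these values in the pattern was not tested.

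Mrpl35, the counterpart of bacterial L35, was lower in every relapse tumour. Its levels were 7.33, 7.15, 7.29, 7.40 and 7.62 in ctrl and 6.48, 6.51, 6.85, 6.56 and 6.70 in relapse. It fell by 0.74 on the log2 scale (SE 0.17, adjusted p = 0.00745 in limma). For Mrpl35, relapse against ctrl, the change was -0.44 with the authors' values and -0.20 with centring on all probes (adjusted p = 0.0553 and 0.428 in limma), and the call was also lost within each slide alone. Mrpl23, at the exit tunnel of the bacterial ribosome, fell by 0.51 with all 5 relapse values below all ctrl values. Mrpl36, the counterpart of the very small bacterial L36, fell by 0.54, and 4 of 5 relapse values were below all ctrl values. The adjusted p-values of these last 2 genes were close to the threshold, at 0.0463 and 0.0465 in limma, and each call was lost in 8 of 10 fits without 1 array.

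**Figure D3:**
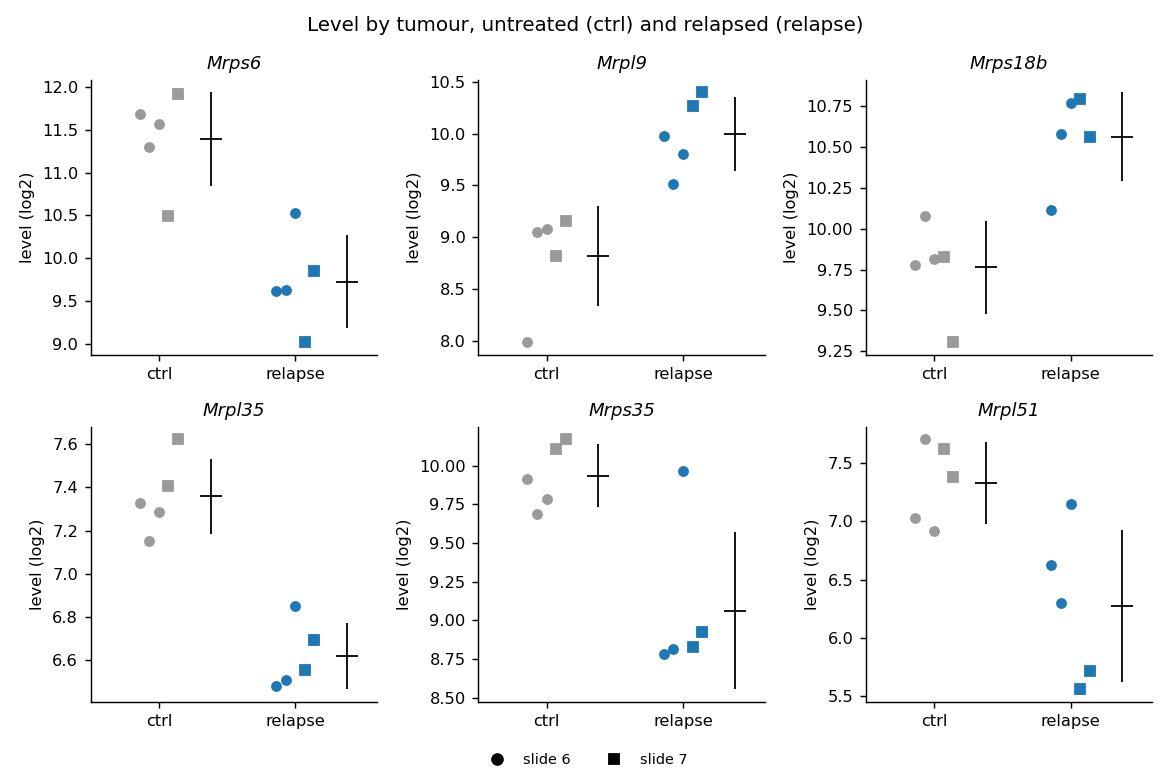
Level (log2) of 6 members in each ctrl (grey) and relapse (blue) tumour, with the slide given by the symbol and the group mean and SD by the black bars. Mrpl9 and Mrps18b are higher in 5 of 5 relapse tumours and Mrpl35 lower in 5 of 5, whereas 1 relapse tumour of Mrps6, Mrps35 and Mrpl51 overlaps the controls.

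The count at relapse moved when single tumours were left out. Without relapse tumour 4 or without relapse tumour 5 it was 4 of 72, and without relapse tumour 3 it was 13. Shares of all genes in these fits are not given, so the moves are not read as particular to the members. Centring on the median of all probes, with the median of all genes at 0.30, gave 12 higher and 1 lower. The shares of all genes were then 21.8% and 6.88%. The fall of Mrps6 and the rises of Mrpl9 and Mrps18b kept their calls when any 1 array was left out and in 11 of 12 other settings, and those of Mrpl35 in all 10 and in 8 of 12.

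The difference between both changes was tested itself, over all 26 arrays. It was significant for 7 of 72 members (9.72%), beside 16.6% of all genes (limma, adjusted p under 0.05). The EDT change was the higher one for 4 members and the lower one for 3, beside 9.76% and 6.8% of all genes. Mrpl13 rose in EDT and had -0.36 ± 0.18 at relapse, a difference of 1.02 ± 0.20 (adjusted p = 0.00205). Mrps33 also rose in EDT and had -0.30 ± 0.22 at relapse, and Mrpl37 fell in EDT and had 0.52 ± 0.25 at relapse. A second Mrpl37 probe rose at relapse by 0.92. Mrpl9 and Mrps18b rose at relapse and had 0.13 ± 0.11 and -0.15 ± 0.14 in EDT, with differences of -1.05 ± 0.25 and -0.95 ± 0.23 (adjusted p = 0.00646 and 0.0075 in limma). Mrps6 and Mrps35 fell at relapse and had -0.43 ± 0.16 and -0.16 ± 0.13 in EDT, with differences of 1.23 ± 0.33 and 0.71 ± 0.25 (adjusted p = 0.0138 and 0.0493 in limma). The Mrps35 difference was lost in 21 of 26 fits without 1 array and in 3 of 9 other settings.

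Of the 72 members, 45 had the same sign in both comparisons. Of the 9 risers in EDT, 7 had a positive change at relapse, and of the 7 fallers 2 had a negative one. All 6 fallers at relapse had negative EDT values. Across members the changes correlated with r = 0.24 (n = 72 genes), and across all tested genes with r = 0.62 (n = 9553). Genes share arrays and are not independent, so these are descriptions.

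**Figure D4:**
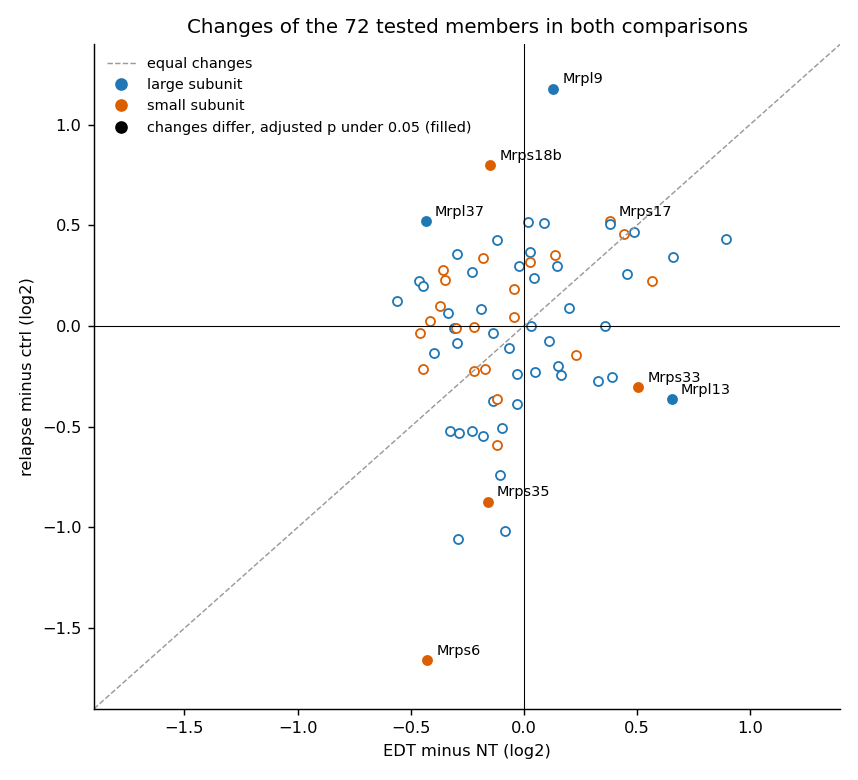
Change in EDT (horizontal) against change at relapse (vertical) for the 72 tested members, both on the log2 scale, with the dashed line at equal changes. Filled points are the 7 members whose changes differed in the test, such as Mrpl13 (0.66 and -0.36) and Mrpl9 (0.13 and 1.18), and Mrps17 (0.38 and 0.52) lies near the line.

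Proteins with a bacterial counterpart and proteins of mitochondria only were also set side by side. In EDT 10 of 44 with a counterpart passed (22.7%) and 6 of 28 without one (21.4%), both below the 29.6% of all genes. At relapse the numbers were 7 of 44 (15.9%) and 2 of 28 (7.14%), beside 30.8% of all genes, with median changes of 0.15 and -0.21. The other members of known roles did not pass in either comparison. Mrps12, at the decoding site, had -0.22 ± 0.12 in EDT and -0.22 ± 0.19 at relapse. A second Mrps12 probe, detected on every array, had -0.27 ± 0.11 and 0.26 ± 0.21, so the sign at relapse differed between probes. Mrpl58, which releases stalled chains, had -0.23 ± 0.13 and -0.52 ± 0.31. Mrpl44, which has the fold of an RNA-cutting enzyme, had -0.08 ± 0.11 and -1.02 ± 0.39, the latter with a 95% interval of -1.87 to -0.17 and an adjusted p of 0.0663 in limma.

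Mrpl3, Mrps16 and Mrps34 are mutated in human mitochondrial diseases. Their EDT changes were -0.02 ± 0.10, 0.23 ± 0.16 and -0.12 ± 0.11, and their relapse changes 0.30 ± 0.22, -0.15 ± 0.27 and -0.36 ± 0.19. None passed with the brightest probe. A second Mrpl3 probe rose at relapse by 1.14 ± 0.32.

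Such disagreements between probes were counted for the 26 members with several passing probes. All probes of a gene had the same sign for 21 of the 26 in EDT and for 17 at relapse. All had the same call for 19 and 22. Some of these probes were detected on part of the arrays only. At relapse the brightest Mrps25 probe had -0.21 ± 0.22, whereas its other passing probes fell by 0.74 and 0.76. The brightest Mrpl49 probe had -0.52 ± 0.24, and the others ranged from -0.89 to 0.40. In EDT the brightest Mrps31 probe had -0.04 ± 0.13 and the other passing ones fell by 0.42 and 0.36. Of the 2 Mrpl33 probes in EDT, 1 passed at 0.59 and the brightest did not at 0.49. Relapse changes ranged from -0.51 to 0.54 over 6 Mrpl15 probes and from -0.27 to 0.23 over 2 Mrps15 probes. Over 3 Mrps10 probes they ranged from -0.06 to 0.32, and 0 probes of these last 3 genes passed.

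The median within-group SD of the members was 0.316, beside 0.384 for all tested genes. The steadiest were Mrps17 at 0.16, Mrps9 at 0.18 and Mrpl23 at 0.20, and the most variable were Mrpl51 at 0.51, Mrpl11 at 0.48 and Mrpl44 at 0.45. After removal of group means, pairs of members correlated over arrays with a median r of 0.14 in the first table (16 arrays) and 0.29 in the second (10 arrays). Pairs of all genes had a median r of 0.00 in both. These correlations are descriptions, since all pairs share the same arrays.

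Genes that work with the mitochondrial ribosome were counted beside its proteins, and beside the 29.6% of all genes called in EDT and 30.8% at relapse. Nuclear subunits of oxidative phosphorylation, the respiratory chain and ATP synthase proteins that join the products of this ribosome, had 3 higher and 35 lower of 72 tested in EDT (52.8%, median -0.36), and 0 higher and 16 lower at relapse (22.2%, median -0.31). That list was chosen by symbol pattern, and without the pseudogene Ndufs5-ps and the assembly factor Cox7a2l the same calls stood among 70 genes. The largest called fall in EDT was that of Cox7a1, by 1.39, detected on 7 of 8 EDT arrays. Ndufb11, detected on 7 of 8 EDT arrays, and Ndufb7 of complex I each fell by 0.71 in EDT. At relapse Cox7a2 of cytochrome oxidase fell by 1.60 and Ndufb2 of complex I by 1.57. The members' medians were -0.10 and 0.00.

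Cytosolic ribosomal proteins, also chosen by symbol pattern, had 9 higher and 0 lower of 55 in EDT (16.4%, median 0.17) and 4 and 0 at relapse (7.27%, median 0.01), once the kinases Rps6ka3 and Rps6ka5 and the binding protein Rps19bp1, which the pattern also takes in, were left out after the values were seen. Rpl22l1, detected on 5 of 8 NT arrays, rose by 0.95, Rps27l by 0.75 and Rps24 by 0.71 in EDT, and Rps6 by 1.02 at relapse. Of 19 assembly genes, 3 fell in EDT and 3 at relapse. Mrm1, which methylates the large mitochondrial ribosomal RNA, fell by 0.66 and 0.87, and Trub2, which forms pseudouridine in mitochondrial RNA, by 0.41 and 1.02.

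Of 12 translation factors, Mtrf1, a release factor homologue detected on 4 of 8 NT arrays, rose by 0.57 in EDT, and Oxa1l, which inserts new chains into the inner membrane, fell by 0.49. At relapse Gfm2, which helps to recycle ribosomes, fell by 1.22. Of 12 mitochondrial aminoacyl-tRNA synthetases, Sars2 (detected on 6 of 8 EDT arrays), Cars2 and Vars2 fell in EDT, by 0.80, 0.56 and 0.53, and Rars2 rose by 0.94 at relapse. Of 13 genes for transcription and upkeep of mitochondrial DNA, Slirp and Tfam rose in EDT, by 0.92 and 0.35, and Polg, the DNA polymerase, and Tk2 fell at relapse, by 0.89 and 0.67. Among mitochondrial ribosomal proteins with other names, Chchd1 rose by 0.64 in EDT, and 0 of 3 tested passed at relapse.

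**Figure D5:**
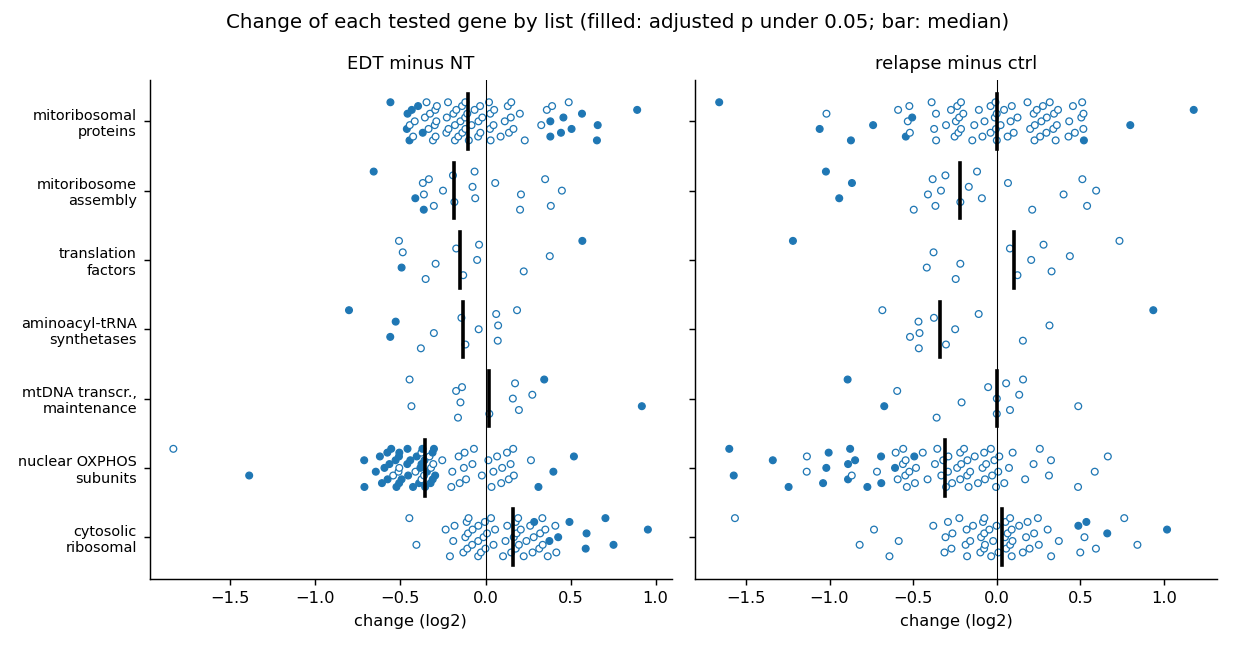
Change (log2) of each tested gene of 7 lists in EDT (left) and at relapse (right), with the list median as a black bar and filled points for adjusted p under 0.05. The median of the 72 mitochondrial ribosomal proteins is at -0.10 in EDT and 0.00 at relapse, and that of the 72 genes of the nuclear OXPHOS list at -0.36 and -0.31.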

How the data were processed

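The authors' files hold, per the file headers, the mean bead intensity of each probe with a detection p-value, and for the second table the number of beads as counts. In 11 detection columns there are rows whose signal and p-value were exchanged, so these deposited columns were treated as a score with no fixed range, and the 4 probes concerned were left out. The series value table holds the authors' processed log2 values and was used as an alternative. The upstream scanner software is not given in the sources used here. From the intensities, limma 3.58.1 (R 4.3.3) made log2 values with neqc in each table (negative controls inferred from detection p-values, offset 16). Probes were kept if 5 or more arrays of any group had a detection p below 0.01, and the brightest passing probe over all arrays stood for its gene, which left 9553 genes. Of 45260 probes, 34871 had 1 gene symbol in GEO's platform annotation, 18 had several and 10371 none. lmFit and eBayes tested EDT minus NT, relapse minus ctrl, and the difference of these changes over 26 arrays, with Benjamini-Hochberg adjustment over all genes and a threshold of 0.05. Array numbers limit the precision. The test was run on simulated data as well. In the EDT setting it recovered 16 of 50 genes raised by 0.5 log2 units and 44 of 50 raised by 1. In the relapse setting it recovered 0 of 50 and 13 of 50, so a change of this size at relapse can fail to pass. Far fewer genes changed in the simulation than passed in the data, so these shares are not those of the real test.

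The members, lists and tests were chosen with earlier results of these data known. Named are, per comparison and direction, up to 8 called members with the largest change; members of chosen roles; those with the largest difference of changes; those whose probes disagree or whose spread is extreme; and up to 3 called genes per direction of each companion list. Alternatives were the authors' values, other background correction, centring, filters and probe summaries, slide and replicate blocks, single slides and leaving out each array.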

Additional observations from a re-analysis of the deposited data

Results flagged for a closer look

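Of 180 groups of values checked for the members named, 9 held a tumour far from the others of its group by Dixon's test, and chance gives about 1 in 20 such groups. At relapse, Mrps35 in relapse tumour 3 had a level of 9.96 while the other 4 lay at 8.78 to 8.92, and Mrpl11 in relapse tumour 2 had 8.05 while the others lay at 9.12 to 9.52. In ctrl, Mrpl57 in tumour 3 was at 5.33, below 6.04 to 6.27. In NT, Mrps16 in tumour 5 was at 9.22, below 9.74 to 9.96. In EDT, Mrpl35 in tumour 2 was at 6.45, below 7.24 to 7.56, Mrpl3 in tumour 5 at 10.23, above 9.84 to 10, and Mrpl38 in tumour 8 at 10.64, above 10.23 to 10.37. EDT tumour 7 was low for 2 members, Mrps34 at 10.38 (others 10.81 to 11.11) and Mrps7 at 10.21 (others 10.61 to 10.88).

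For 7 members the EDT change minus the relapse change passed the limma test over all genes. It was 1.23 for Mrps6, 1.02 for Mrpl13, 0.81 for Mrps33 and 0.71 for Mrps35, and it was -1.05 for Mrpl9, -0.95 for Mrpl37 and -0.95 for Mrps18b.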

How the results depend on the processing

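Counts of members past the limma threshold moved with the processing, and the cause was not tested except where named. In EDT (9 higher, 7 lower, 16 in all), the authors' values gave 1 lower, beside 7.9% of all genes, and a median change of 0.0192. Centring on all probes gave 15 higher, 0 lower and a median of 0.25 in EDT, beside 23.8% higher and 1.82% lower of all genes. At relapse it gave 12 higher, 1 lower and a median of 0.34, beside 21.8% and 6.88%. For the difference of changes it gave 2 higher, 1 lower and 3 in all, beside 4.24%, 2.51% and 6.75%. It turned Mrps26 in EDT from -0.37 to 0.0044 (adjusted p = 0.992 in limma). Centring on passing probes, chosen after the data were seen, gave 9 higher and 8 lower in EDT, beside 12.8% and 17.2% of all genes. At relapse it gave 2 and 7, beside 11.2% and 19.7%. Without a detection filter 4 were lower in EDT, beside 6.86% of all genes. The mean of passing probes gave 5 higher at relapse, beside 13.8%. Counting probes in place of genes, which counts more features, gave 11 lower in EDT, beside 14.7% of all passing probes. At relapse it gave 8 higher and 17 in all, beside 14.6% and 31%. The difference had 8 higher, 10 lower and 18 in all, beside 8.67%, 8.72% and 17.4%. With slide as a fixed block EDT had 0 higher and 6 in all, beside 6.41% and 10.9% of all genes. The difference had 2 higher and 5 lower, beside 5.14% and 3.7%. As a random block slide left 5 higher in EDT, beside 12.7%. Slide 5 alone gave 0 higher, 0 lower and 0 in all in EDT, beside 5.02% of all genes called. Slide 6 alone gave 0 higher, 1 lower and 1 in all at relapse, beside 5.95% of all genes called. Slide 7 alone gave 3 lower and 5 in all, beside 25.6% called. Each of these fits had 4 to 6 arrays. The labels do not state that replicate numbers pair the tumours. Same-numbered arrays had correlations of -0.05 to 0.18 in EDT and NT, with 1 of 8 above 0.1. In relapse and ctrl they were -0.06 to 0.34, with 3 of 5 above 0.1. These values cannot decide on pairing, since same-numbered ctrl and relapse arrays also shared a slide. With the replicate block EDT had 5 higher, 4 lower and 9 in all, beside 26.3% of all genes called. Relapse had 2 higher and 4 lower, beside 32.6% called. Leaving out 1 array at a time gave 6 to 11 higher, 3 to 10 lower and 9 to 21 in all in EDT, with medians of -0.12 to -0.07, and 2 to 4 higher, 2 to 9 lower and 4 to 13 in all at relapse, with medians of -0.04 to 0.10. For the difference it gave 2 to 6 higher, 3 to 5 lower and 5 to 11 in all. Shares of all genes in the fits without 1 array are not given, so these ranges are not read as particular to the members. The total moved by over 1.5 times without EDT tumours 3 (10), 4 (10) or 8 (9), without relapse tumours 4 (4) or 5 (4), and, for the difference, without relapse tumour 3 (11). The differences between groups in detected probes ranged from 899 to 1220 in EDT and from 1228 to 1999 at relapse (exact p up to 0.0155 and 0.0794), and those of the 95th percentile of raw log2 signal from 0.34 to 0.51 and from 0.28 to 0.51. Over all alternatives, 660 of 875 called gene values kept their call, 214 lost it and 1 reversed. Few arrays per slide limit what the slide checks can show, and dim members such as Mrpl57 were not above background on every array.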
